A study of Arabidopsis thaliana with 36 samples.

Results

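Shoots were compared with roots at midday in unstressed Arabidopsis thaliana seedlings of accession Col-0, on 12 of the 36 arrays of a control series. The shoot side is 6 arrays (Control-Shoots at 3, 4 and 6 h, 2 arrays each) and the root side is 6 arrays (Control-Roots at the same times, 2 arrays each), so the organs are matched by time. Time 0 h lay 3 h after lights on at day 16 of culture, and 3, 4 and 6 h therefore lay 6, 7 and 9 h into a 16 h light period. The comparison windows were morning and dusk, with 8 shoot and 8 root arrays at 0 to 1 h (3 to 4 h after lights on) for morning and 2 and 2 arrays at 12 h (15 h after lights on) for dusk. All plants grew at 24 °C and 50% humidity in Magenta boxes on Murashige and Skoog medium. They were wild type and received no stress, but the boxes were taken out of the chamber, opened and returned, and the rafts were lifted, as for treated plants. Organs were harvested whole, so in these bulk samples fewer cells of a type and less RNA per cell cannot be told apart.

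Shoots of a seedling are mostly green leaf tissue, whose chloroplasts capture light, fix carbon dioxide and store part of the carbon as starch by day. Roots have no photosynthesis of their own, burn sugar delivered through the phloem, take up ions and water, and build walls, suberin and defence compounds at the contact with the medium. Many shoot transcripts follow light and the circadian clock, so a difference between the organs belongs to the hour at which it was measured.

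The labels were checked against genes that mark each organ. The 5 of 10 photosynthesis markers that the probe table names (RCA, SBPASE, PSAE-1, PRK and LHCB4.2) summed to signals of 20000 to 23800 on the shoot arrays, against 136 to 211 on the root arrays. The 3 of 10 root markers named (PYK10, EXPA7 and EXPA18) summed to 664 to 1550 on the shoot arrays, against 3520 to 3690 on the root arrays, and PYK10 gave most of it. The 4 h shoot arrays were the highest of the shoot arrays in root markers, at 1550 and 1300. Over 94 root-abundant probe sets chosen on the other 24 arrays, the shoot signal was 2.64 and 3.28% of the root signal at 4 h, and 1.13 to 1.93% at 3 and 6 h. Among the morning shoot arrays it was 6.04 and 2.38% at 0 h and 0.993 to 1.59% at 0.25 to 1 h, so results against morning are also given without 0 h. Between replicates the correlation over probe sets, which are no independent points, was 0.979 to 0.992. Signals reached 40 for 49 to 50.4% of probe sets on shoot arrays and for 52.7 to 53.6% on root arrays.

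Shoots and roots differed at midday in most of what the array measures. Of the 15091 probe sets kept (signal 40 or more on 2 or more arrays), 12941 (85.8%) differed between shoots and roots at midday at an adjusted p under 0.05 in limma. Shoots were higher for 4549 (30.1%) and lower for 8392 (55.6%). Differences of at least 2-fold were counted 2560 times toward shoots and 3113 times toward roots, and differences of at least 8-fold 742 and 442 times. All differences are shoots minus roots on the scale log2(signal + 10), where 10 is 10% of the array mean, so folds of weak genes are understated. The median over all probe sets was -0.3, and centring each array on its median moved it to -0.16, so small differences depend on the scaling. Quantile normalization moved some genes further, such as PRXR1 from 0.21 to -0.54. The labels do not say whether replicate arrays came from separate plants, and the p-values measure only the spread between these samples, which may be technical.

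Genes of the light reactions were far higher in shoots. All 19 kept genes of photosystem subunits, antenna proteins and their assembly factors were higher in shoots, with a median difference of 4.82 (range 1.71 to 6.98). Over all probe sets 30.1% were higher. In all 19 the 6 shoot arrays lay above the 6 root arrays, where 23.8% of all probe sets did so. Median signals of the list were 1000 in shoots and 34.7 in roots, so members could pass the filter through their shoot arrays alone. The counts and the median are therefore no test of the group. PSAE-1 (AT4G28750), a stromal subunit of photosystem I, had signals of 4680, 5490 and 6540 on the lowest, median and highest shoot array, against 20.2, 33.3 and 55.6 on root arrays. Its difference was 6.98 ± 0.14 (SE, adjusted p = 2.3e-22). LHCB4.2 (AT3G08940), a minor antenna protein of photosystem II, read 4370, 4970 and 5570 in shoots and 23.9, 29.7 and 36.5 in roots, a difference of 6.97 ± 0.12. The related LHCB4.1 (AT5G01530) differed by 5.34 ± 0.09 and LHCB4.3 (AT2G40100) by only 3.16 ± 0.11. PSAN (AT5G64040) of photosystem I and PSBY (AT1G67740) of photosystem II had a mean signal of at least 40 in both organs, and differed by 6.33 ± 0.13 and 6.3 ± 0.09. The smallest differences of the group were those of PGRL1B, of cyclic electron flow (1.71), and of LPA1, an assembly factor of photosystem II (1.96).

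Genes of the plastid genome pointed the same way with smaller differences. All 35 kept photosynthesis genes were higher in shoots (median 3.29), as were all 10 genes of the NDH complex, which returns electrons to the plastoquinone pool (median 3.56), and all 20 genes of plastid transcription and translation (median 2.54). Over all probe sets 30.1% were higher. No member had overlapping organs, where the 6 shoot arrays lay above the 6 root arrays for 23.8% of all probe sets. The gene psbA, for the D1 protein of photosystem II, read 2850, 3540 and 4480 on shoot arrays, against 52.1, 64.8 and 75.4 on root arrays, a difference of 5.6 ± 0.12. Its partner psbD, for the D2 protein, followed with 4.99 ± 0.19, and psbC, for an inner antenna protein, with 4.72 ± 0.21. At the low end petN, for a small subunit of the cytochrome complex, differed by 1.43. The ribosomal protein gene rpl33 read 2350, 2820 and 3290 in shoots and 182, 199 and 226 in roots, a difference of 3.71 ± 0.13.

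All 4 kept genes of carbon fixation were higher in shoots (median 6.23), where 30.1% of all probe sets were. Median signals of the list were 3290 in shoots and 20.4 in roots, so members could pass the filter through their shoot arrays alone. The count and the median are therefore no test of the group. PRK (AT1G32060), phosphoribulokinase, read 3820, 4120 and 4440 on shoot arrays and 13.7, 23.7 and 26.2 on root arrays, a difference of 7.01 ± 0.11. RCA (AT2G39730), the activase that keeps Rubisco working, read 4630, 5000 and 5410 in shoots and 54, 67.6 and 76.4 in roots, a difference of 6.04 ± 0.08. SBPASE (AT3G55800), a bisphosphatase of the Calvin cycle, differed by 6.43 ± 0.09, and TRXF2 (AT5G16400), a thioredoxin that switches the cycle on in the light, by 4.84 ± 0.08. In photorespiration, which recovers carbon when Rubisco takes oxygen, all 4 genes were higher in shoots, against 30.1% of all probe sets. The hydroxypyruvate reductase gene HPR (AT1G68010) led this pathway at 6.19 ± 0.1. AT1G80380, the glycerate kinase that ends that pathway, had the smallest difference, 1.17 ± 0.17.

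Chlorophyll synthesis was higher in shoots, most of all at its late steps among the genes named. Of 10 kept genes of tetrapyrrole synthesis, 9 were higher in shoots and 1 was lower (median 3.71), against 30.1% and 55.6% of all probe sets. PORB (AT4G27440), a light-dependent protochlorophyllide reductase, read 1710, 2360 and 4120 on shoot arrays and 27.8, 37.1 and 55 on root arrays, a difference of 5.73 ± 0.15. CHLI2 (AT5G45930), of the chelatase that inserts magnesium, differed by 4.74 ± 0.1, and CHLM (AT4G25080), the methyltransferase after it, by 4.11 ± 0.08. The early genes GSA1 (AT5G63570) and HEMB1, shared with haem synthesis, had smaller differences, 1.68 ± 0.08 and 2.33. HEME1 (3.28) and HEME2 (3.9) of the same list lay between these and CHLM. The CHLI2 value depends on the added 10, as its root mean was 2.67. HEMA2, a root-type form of the first committed enzyme, was lower in shoots by -0.23, a call that was lost when arrays were centred or quantile-normalized.

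**Figure D1:**
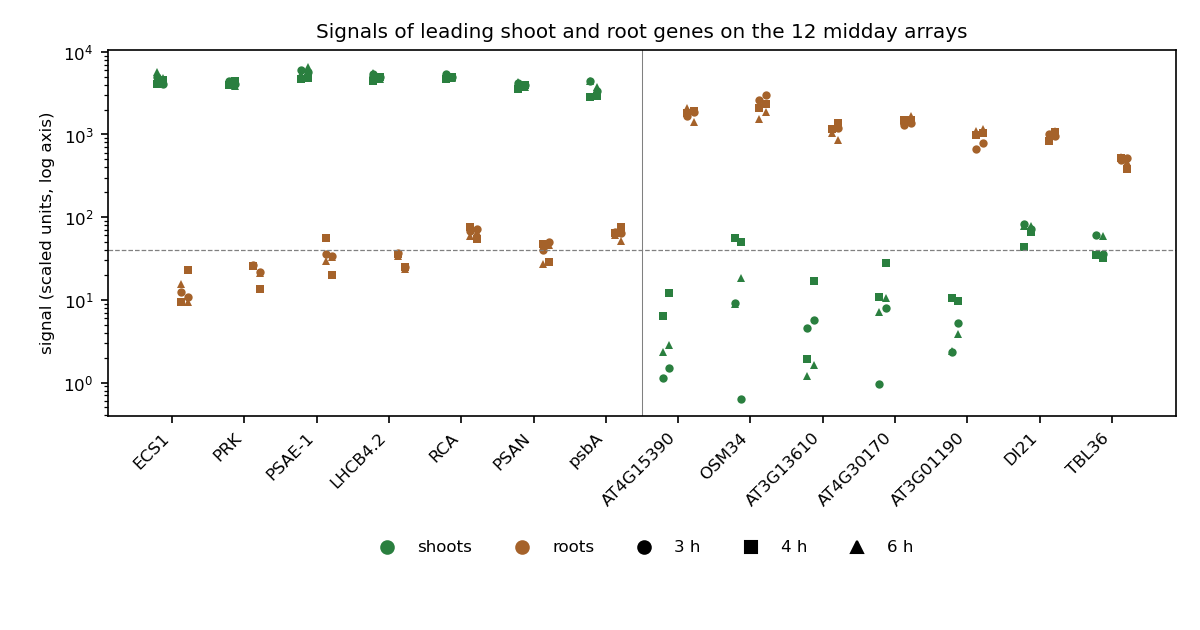
Signals of 7 genes high in shoots and 7 genes high in roots on each of the 12 midday arrays, on a log axis in scaled signal units, with shoots in green left of roots in brown, and circles, squares and triangles for 3, 4 and 6 h. The dashed line marks a signal of 40. In all 14 genes the 6 shoot arrays and the 6 root arrays lay apart, but lack of overlap was part of the rule that named leading genes.

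The largest shoot difference of a named gene was outside photosynthesis, that of ECS1 (AT1G31580), a cell wall protein. It read 4070, 4650 and 5770 on shoot arrays, against 9.33, 11.5 and 23.2 on root arrays, a difference of 7.67 ± 0.11. AT1G09310, AT1G23130, AT2G10940 and AT1G70820, which have no symbol in the gene table, followed with 7.41, 7.39, 7.07 and 6.71. Root signals of these 5 genes were all below 40, so their order among themselves depends on the added 10. Regulators of shoot form were higher in shoots at lower signals. The leaf polarity genes YAB5 (AT2G26580) and YAB3 (AT4G00180) differed by 2.58 ± 0.1 and 2.18 ± 0.12, and FMA (AT3G24140), which completes guard cell fate, by 1.69 ± 0.1. Among MADS box regulators 3 of 10 were higher and 6 lower in shoots, close to the shares over all probe sets (30.1 and 55.6%), with AGL87 (AT1G22590) at 3.7 ± 0.06 and AGL21 (AT4G37940), a regulator of lateral root growth, at -2.2 ± 0.09.

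Class III peroxidases, secreted enzymes that cross-link and loosen walls, were the largest group on the root side. Of 42 kept genes 34 were lower in shoots, 7 were higher and 1 did not pass the test (median -2.69), and the higher PRXR1 (0.21) was lower after quantile normalization (-0.54). Over all probe sets 55.6% were lower. Median signals of the list were 16.9 in shoots and 188 in roots, so members could pass the filter through their root arrays alone. The counts and the median are therefore no test of the family. AT4G30170 read 0.951, 9.25 and 27.6 on shoot arrays and 1300, 1480 and 1660 on root arrays, a difference of -6.24 ± 0.17. AT3G01190 read 2.36, 4.52 and 10.5 in shoots and 662, 1020 and 1160 in roots (-5.96 ± 0.14), and Prx37 (AT4G08770) differed by -5.42 ± 0.21. The 6 shoot arrays of 29 of the 42 genes lay below all 6 root arrays, where 43.6% of all probe sets did so. On the other side, AT1G71695 was higher in shoots by 2.4 and AT5G58390 by 2.28.

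Other single genes had root differences of similar size. AT4G15390 had a root difference of -7 ± 0.18, with signals of 1.14, 2.62 and 12.2 on shoot arrays and 1430, 1840 and 2080 on root arrays. AT3G13610, the feruloyl-CoA hydroxylase that makes iron-mobilising coumarins, read 1.21, 3.26 and 16.7 in shoots and 863, 1180 and 1360 in roots (-6.29 ± 0.2). OSM34 (AT4G11650), an osmotin-like protein, differed by -6.32 ± 0.18. AT4G39675 (-6.45), AT5G66985 (-6.22) and AT2G19970 (-6.18) also had weak shoot signals, so the order of these genes depends on the added 10.

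Among genes measured in both organs, AT2G43590 (-4.02), AT5G37740 (-3.99), AT1G17860 (-3.87) and AT2G31390 (-3.76) led the root side. DI21 (AT4G15910), a drought-induced gene, read 43, 74.7 and 82.9 on shoot arrays, against 837, 983 and 1110 on root arrays, a difference of -3.66 ± 0.1. MT1C (AT1G07610), a metallothionein that binds metal ions, read 412, 518 and 984 in shoots and 3840, 4330 and 4520 in roots (-2.78 ± 0.08). APS4 (AT5G43780), an ATP sulfurylase that opens sulfate assimilation, differed by -2.54 ± 0.08, and the jacalin-related lectin JAL33 (AT3G16450) by -3.17 ± 0.18. These 4 were picked among genes whose 6 shoot and 6 root arrays do not overlap, so their lack of overlap is no further result.

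Families of wall and detoxification enzymes held members on both sides, and their counts are read against the 30.1% higher and 55.6% lower of all probe sets. Expansins, which loosen walls during growth, were lower in shoots for 11 and higher for 2 of 14 genes. EXPA4 (AT2G39700) read 46, 55.6 and 65.3 in shoots and 298, 490 and 589 in roots (-2.85 ± 0.13), whereas EXPA8 (AT2G40610) read 459, 745 and 1290 in shoots and 14.8, 35.4 and 43 in roots (4.21 ± 0.23). Of 7 xyloglucan-remodelling XTH genes 3 were higher and 4 lower, from XTH32 (AT2G36870) at 2.18 ± 0.12 to XTH19 (AT4G30290) at -3.16 ± 0.12. The TBL family, which acetylates wall polymers, had 4 higher and 10 lower of 16, close to those shares, with TBL45 (AT2G30010) at 3.22 ± 0.11 and TBL36 (AT3G54260) at -3.26 ± 0.12. Each of these families thus held members with several-fold differences in both directions.

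Glutathione transferases, which conjugate toxic compounds, were lower in shoots for 9 and higher for 4 of 13. GSTU22 (AT1G78340) read 8.14, 13.5 and 33.5 in shoots and 473, 562 and 809 in roots (-4.57 ± 0.15), while GSTU20 (AT1G78370) read 825, 1090 and 1300 in shoots and 100, 115 and 178 in roots (2.96 ± 0.14). UGT glycosyltransferases, which attach sugars to small molecules, were lower for 20 and higher for 11 of 34, again close to the shares over all probe sets. UGT72E2 (AT5G66690), which acts on lignin monomers, differed by -4.13 ± 0.09 and UGT88A1 (AT3G16520) by 3.98 ± 0.09. The CYP71 and CYP78 enzymes of oxidative metabolism leaned the other way, with 9 higher and 4 lower of 13, led by CYP71B5 (AT3G53280) at 3.31 ± 0.08.

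Defence peptides were split evenly, with 4 higher and 4 lower of 9 defensins and thionins, against 30.1% and 55.6% of all probe sets. PDF2.1 (AT2G02120) read 0.341, 0.809 and 1.38 on shoot arrays and 266, 365 and 454 on root arrays (-5.06 ± 0.12). THI2.2 (AT5G36910), a thionin, read 280, 423 and 522 in shoots and 2.03, 3.8 and 7.98 in roots (4.92 ± 0.13). The jasmonate-responsive PDF1.2b (AT2G26020) ranged from 31 to 1270 between shoot arrays, and its difference of 2.55 ± 0.7 did not pass without the 4 h arrays (1.58).

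Most kept respiration and low-oxygen genes were lower in shoots, as were 55.6% of all probe sets. Of 12 genes for citrate lyase and the citric acid cycle 10 were lower and 1 was higher, and 8 and 9 stayed lower after centring and quantile normalization. SDH1-1 (AT5G66760), of succinate dehydrogenase, read 204, 211 and 224 in shoots and 633, 740 and 877 in roots (-1.75 ± 0.07). All 4 kept low-oxygen response genes were lower, AT3G10040 (HRA1, an attenuator of that response) by -3.38 ± 0.24 and PDC2 (AT5G54960), a pyruvate decarboxylase of fermentation, by -1.32 ± 0.22. Autophagy genes of the ATG8 family were lower for 6 and higher for 1 of 9 (5 and 2 after centring), where 55.6% of all probe sets were lower, with APG8A (AT4G21980) at -2.38 ± 0.07. Of 4 cold and drought genes COR15B and COR15A were higher and LTI30 (AT3G50970) and COR47 (AT1G20440) lower in shoots, with LTI30, a dehydrin, at -4.53 ± 0.14.

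Sugar transporters of the SWEET family, which let sugars move down their gradient, were higher in shoots for 6 of the 7 genes listed. Over all probe sets 30.1% were higher, and the list left out SAG29, of the same transporter family. SWEET11 (AT3G48740), which releases sucrose for phloem loading, read 690, 896 and 1010 in shoots and 12.4, 16.4 and 17.2 in roots (5.09 ± 0.08). SWEET1 differed by 1.73 ± 0.08 and SWEET13 by 1.07 ± 0.16. The vacuolar sugar importer TMT1 (AT1G20840) was lower in shoots, at 100, 135 and 175 against 333, 395 and 550 in roots (-1.51 ± 0.1). The related TMT2 (AT4G35300) was higher (0.65 ± 0.09).

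**Figure D2:**
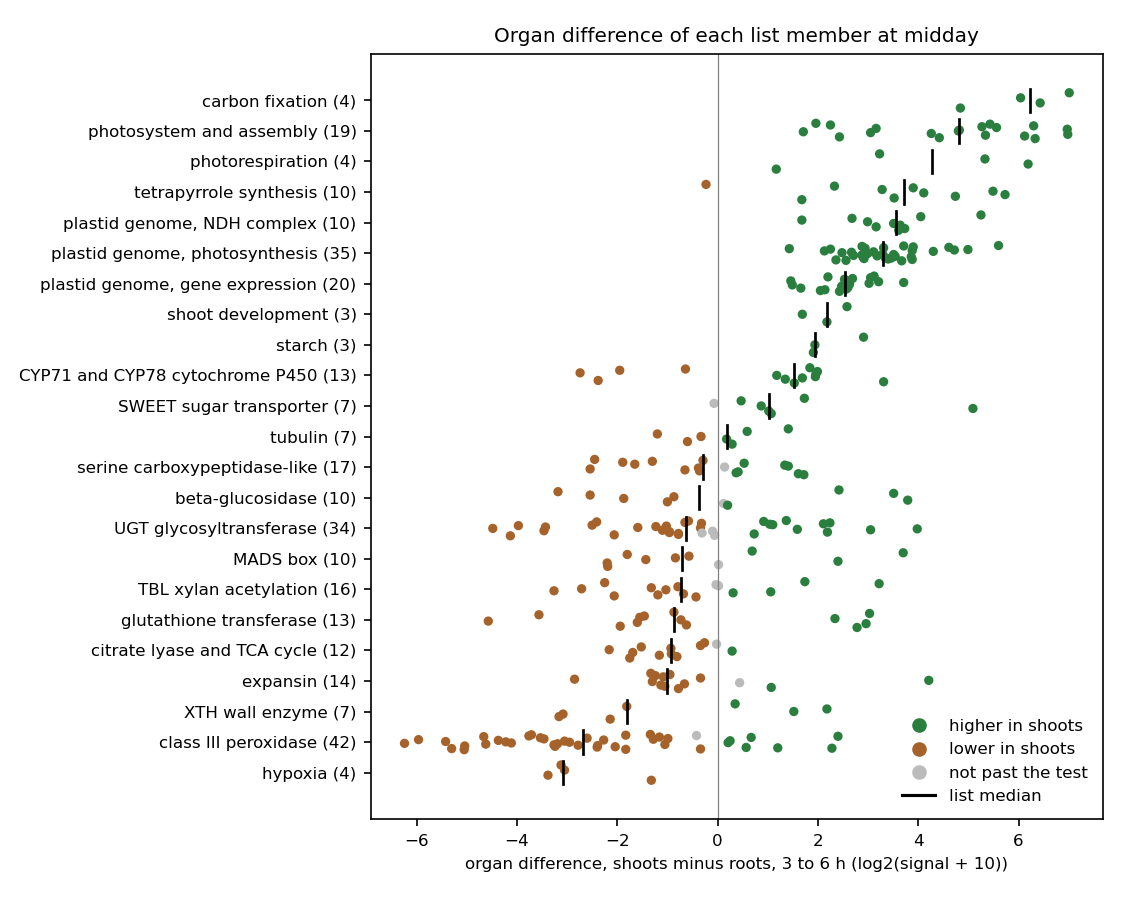
Midday organ difference, shoots minus roots in log2(signal + 10), of each kept member of 23 gene lists, with the number of members in brackets and a black bar at the list median. Green points were higher and brown points lower in shoots at an adjusted p under 0.05, and grey points did not pass; photosynthesis lists lie wholly to the right, and peroxidases and low-oxygen genes mostly to the left.

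Whether the organ difference is 1 value over the window was tested across 3, 4 and 6 h. Taken singly, the times gave 11505 (76.2%), 11455 (75.9%) and 11269 (74.7%) called probe sets, and 9586 (63.5%) were called at all 3 times in the same direction. Only 573 (3.8%) had a difference that varied over the 3 times, and 80 (0.53%) were called in opposite directions at 2 of them. From 3 to 6 h the difference changed for 642 (4.25%), upward for 289 (1.92%) and downward for 353 (2.34%). The counts of 573 and 642 depended on single arrays, as given under the processing.

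The smallest p of a named gene belonged to a late rise in shoots. AT1G07050 read 7.51 and 15 at 3 h, 14.3 and 13.7 at 4 h, and 443 and 395 at 6 h on shoot arrays, against 1.95 to 8.12 on all 6 root arrays. The organ difference was 0.71, 0.56 and 4.97 at 3, 4 and 6 h (adjusted p of the F-test 9.8e-10), so its midday mean stands for no single hour. COR15B (AT2G42530), which encodes a protein that protects chloroplast membranes in the cold, read 205 and 134, then 72.8 and 229, then 1010 and 849 in shoots, against 8.91 to 17.9 in roots. Its difference was 2.8, 2.5 and 5.49 at the 3 times (adjusted p = 0.00014).

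The organ difference of 2 of 3 starch genes and 3 of 5 clock genes varied over these hours, where that of 3.8% of all probe sets did. Both lists were chosen with earlier results of these data known, so the counts are no test of starch or clock genes. PWD (AT5G26570), a water dikinase that phosphorylates starch for its breakdown, read 340 and 284, then 395 and 451, then 1060 and 989 in shoots, against 115 to 143 in roots. The organ difference was 1.34, 1.56 and 2.9 (adjusted p = 2e-05). GI (AT1G22770), GIGANTEA of the clock, read 154 and 203, then 266 and 221, then 448 and 446 in shoots, against 317 and 308, then 364 and 332, then 357 and 268 in roots. It was therefore lower in shoots at 3 h (-0.79 ± 0.13) and at 4 h (-0.5 ± 0.13) and higher at 6 h (0.52 ± 0.13), and each of these passed the test, while the midday mean (-0.26) did not pass after centring (-0.12). AFR (AT2G24540), an F-box protein of far-red signalling, went the other way, with differences of 1.55, 0.97 and -0.22, the last of which did not pass (adjusted p = 0.19). Downward movements also led among AT2G15020 (3.31, 2.96 and 0.56), AT1G64500 (3.45, 3.42 and 1.09) and AT1G55960 (2.64, 2.22 and 0.57).

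OSM34 and MT1C, both higher in roots and singled out here after their values were seen, as was FMO, had their smallest organ differences at 4 h. OSM34 read 9.13 and 0.629 at 3 h, 55.3 and 50.5 at 4 h, and 8.96 and 18.5 at 6 h on shoot arrays, against 2630 and 2960, then 2110 and 2320, then 1550 and 1890 on root arrays. Its difference was -7.62, -5.14 and -6.21 (adjusted p = 0.0038). MT1C read 493 and 544, then 958 and 984, then 412 and 491 in shoots, against 3840 to 4520 in roots, with differences of -3.01, -2.15 and -3.17 (adjusted p = 0.0044). Among the midday shoot arrays, those at 4 h have the highest root markers and the highest share of root-abundant signal (2.64 and 3.28%), and the part of this in the 4 h values was not tested. FMO (AT1G12200), a flavin-containing monooxygenase, differed by -3.77, -2.48 and -2.2 (adjusted p = 0.013), and its root arrays read 520 and 524, then 478 and 443, then 355 and 231.

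**Figure D3:**
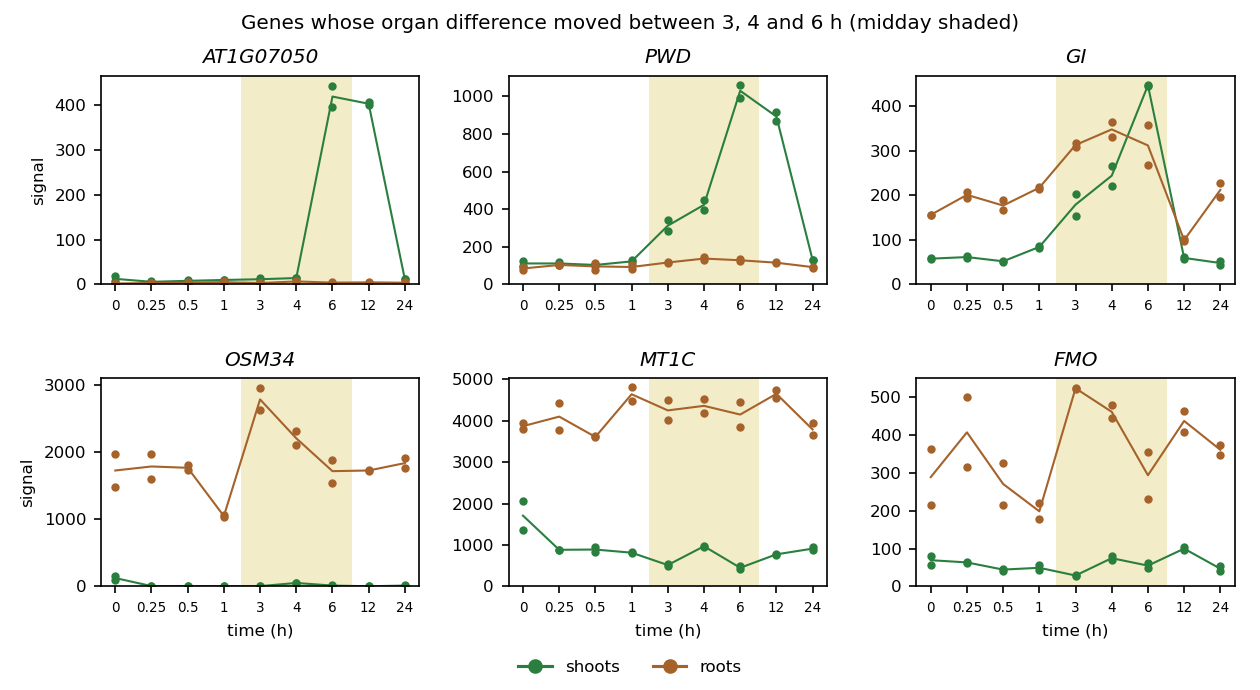
Signals of 6 genes whose organ difference varied over 3, 4 and 6 h, at all 9 times (evenly spaced, not to scale), with points for single arrays, lines through the mean of 2 arrays, shoots in green and roots in brown, and midday shaded. AT1G07050, PWD and GI climbed in shoots to 6 h, GI crossing the root line, while OSM34, MT1C and FMO stayed far higher in roots.

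The midday difference was then set against the morning difference in a test of the change itself. If the boxes were handled at 0 h, hour of day and time since handling cannot be told apart here. The same holds for the comparisons with dusk and within midday. It changed for 4192 probe sets (27.8%), toward shoots for 2213 (14.7%) and toward roots for 1979 (13.1%), and without the 0 h arrays for 3612. Within shoots alone 6147 (40.7%) differed between midday and morning, and within roots 1221 (8.09%). Of the 2213 that moved toward shoots, 1667 were called in shoots only, 148 in roots only and 68 in both organs in opposite directions. Of the 1979 that moved toward roots, the counts were 1493, 157 and 62. Of the plastid genes above, 2 of 35 photosynthesis genes changed, psbA (0.49) and psbD (0.7), with 0 of 10 NDH genes and 1 of 20 expression genes, all toward shoots.

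All 3 kept starch genes moved toward shoots, where 14.7% of all probe sets did. The list was chosen with earlier results of these data known, so the count is no test of starch genes. DPE1 (AT5G64860), which processes maltotriose from starch, read 248, 274 and 547 on midday shoot arrays and 37.1, 46 and 71.8 on morning shoot arrays. Its root arrays read 65.8, 84.4 and 97.7 at midday and 48.5, 64.8 and 75.3 in the morning. The organ difference was 1.91 at midday and -0.31 in the morning, a change of 2.21 ± 0.1 (adjusted p = 3.3e-13). PWD changed by 1.7 ± 0.1, also through shoots. The branching enzyme gene SBE2.2 (AT5G03650) changed by 0.74 ± 0.11 through roots, which read 54.8, 71.3 and 101 at midday and 103, 112 and 134 in the morning, while the shoot change (0.18) did not pass.

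PORB read 1710, 2360 and 4120 on midday shoot arrays and 171, 355 and 718 on morning ones, with no overlap, and its organ difference changed by 2.45 ± 0.2 (adjusted p = 4e-09). Root signals of PORB stayed between 14.6 and 55 in both windows. In tetrapyrrole synthesis 6 of 10 genes changed toward shoots and none toward roots, against 14.7% and 13.1% of all probe sets. That list was also chosen with earlier results known, so the count is no test of the pathway. HEME1 changed by 0.73 and CHLI2 by 0.56. BGLU44 (AT3G18080), a beta-glucosidase family gene, changed by 2.43 ± 0.14, and CHL (AT3G47860), a lipocalin that guards thylakoids, by 1.67 ± 0.09. COR15B changed by 2.9 ± 0.23 and the related COR15A (AT2G42540) by 1.36 ± 0.31.

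The largest changes toward shoots were those of genes without a symbol. AT5G62360 read 52.9, 265 and 930 on midday shoot arrays and 2.51, 7.71 and 18.3 on morning ones, and the organ difference changed by 3.15 ± 0.22 (adjusted p = 3e-10). AT3G62550 read 1020, 1200 and 2040 at midday and 48.5, 150 and 507 in the morning in shoots, and changed by 3.11 ± 0.14. In both genes the midday shoot arrays lay above all morning shoot arrays. AT4G30660 changed by 2.77, AT2G39920 by 2.65 and AT4G34950 by 2.55.

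Tubulins, the subunits of microtubules, also moved, with 5 of 7 genes toward shoots and 1 toward roots, against 14.7% and 13.1% of all probe sets. Some of these changes were small, such as 0.48 for TUA6 and 0.33 for TUB7. The list was chosen with earlier results of these data known, so the counts are no test of the family. TUB5 (AT1G20010) read 355, 424 and 713 on midday shoot arrays and 95.9, 154 and 180 on morning ones, against 137, 171 and 223 at midday and 147, 192 and 228 in the morning on root arrays. Its organ difference was 1.41 at midday and -0.35 in the morning. WLIM2a (AT2G39900), a protein that bundles actin filaments, changed by 1.77 ± 0.11, again with the change in shoots (1.82) and none called in roots (0.05).

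Movement toward roots came through either organ. PDF2.1 was below 6 on all these shoot arrays, and its root arrays read 266, 365 and 454 at midday and 45, 76.2 and 118 in the morning, so the organ difference changed by -2.25 ± 0.16. AT1G53540 also changed through roots, by -2.17 ± 0.47. In contrast SWEET2 (AT3G14770), a vacuolar sugar transporter, read 51.2, 94.6 and 134 on midday shoot arrays and 197, 303 and 488 on morning ones, while roots stayed between 33.5 and 71.9. Without the 4 h arrays its midday organ difference was 0.3 and did not pass. Its organ difference changed by -1.83 ± 0.17, and SAG29 (AT5G13170), of the same transporter family, changed by -1.81 ± 0.27. PPDK (AT4G15530), pyruvate phosphate dikinase, which links pyruvate to sugar synthesis, changed by -1.39 ± 0.15, with 85.8, 198 and 337 in midday shoots and 279, 421 and 509 in morning shoots. CML38 (AT1G76650), a calmodulin-like protein, changed by -1.45 ± 0.42, a call lost without the 0 h arrays (-1.08).

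For 237 probe sets (1.57%) the organ order itself was opposite, called at midday one way and in the morning the other way. The morning difference by itself was called for 88.2%, with shoots higher for 30.4% and lower for 57.8%. Shoots were the higher organ at midday for 128 of these and the lower for 109. All 237 also passed the test of the change, but 2 opposite calls on the same arrays nearly fix that outcome, so it adds no support. The set depends on where 0 lies: centring the arrays gave 262, of which 130 were shared, and quantile normalization gave 228, of which 126 were shared. Of the 16 genes of this kind named here, 15 and 13 kept the reversal. Without the 0 h arrays the count was 197, of which 181 were shared, and 13 of the 16 named genes kept it, all but AT1G19380, WRKY22 and EXO.

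AT4G30650 had the lowest morning difference of these, -1.72, against 0.7 at midday. Its shoot arrays read 83.8, 183 and 1400 at midday and 10.9, 21.6 and 30.8 in the morning, and its root arrays read 113, 160 and 248 at midday and 69.3, 91.4 and 129 in the morning. Midday shoots and midday roots therefore overlapped, with shoots at 164 and 83.8 at 3 h, 91.4 and 202 at 4 h, and 1400 and 1120 at 6 h. AT4G30660 had organ differences of 1.26 at midday and -1.51 in the morning. AT5G62350 read 1640, 1770 and 2140 on midday shoot arrays and 572, 893 and 1010 on midday root arrays, without overlap, and its organ difference was 1.12 at midday and -0.75 in the morning.

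Reversals the other way had shoots higher in the morning and lower at midday. HYH (AT3G17609), the partner of the light regulator HY5, read 14.5, 32.2 and 43.6 on midday shoot arrays and 78.5, 142 and 222 on morning ones, against 37.4, 42.3 and 55.1 at midday and 40.8, 56.3 and 107 in the morning on root arrays. Its organ difference was -0.44 at midday and 1.06 in the morning, and at 6 h it was -1.13. EXO (AT4G08950), an extracellular protein of growth under brassinosteroid, had differences of -0.93 and 0.31, and UGT76C2 (AT5G05860), which glucosylates cytokinins, -0.78 and 0.34. AAH (AT4G20070), which degrades allantoate to recycle nitrogen, had -0.53 and 0.27, and AT1G68440 had -1.12 and 0.65. WRKY22 (AT4G01250), a defence regulator, had -0.41 and 0.41, but its midday call was lost after centring (-0.27) and quantile normalization (-0.25). The DPE1 and EXO reversals were not kept after quantile normalization.

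**Figure D4:**
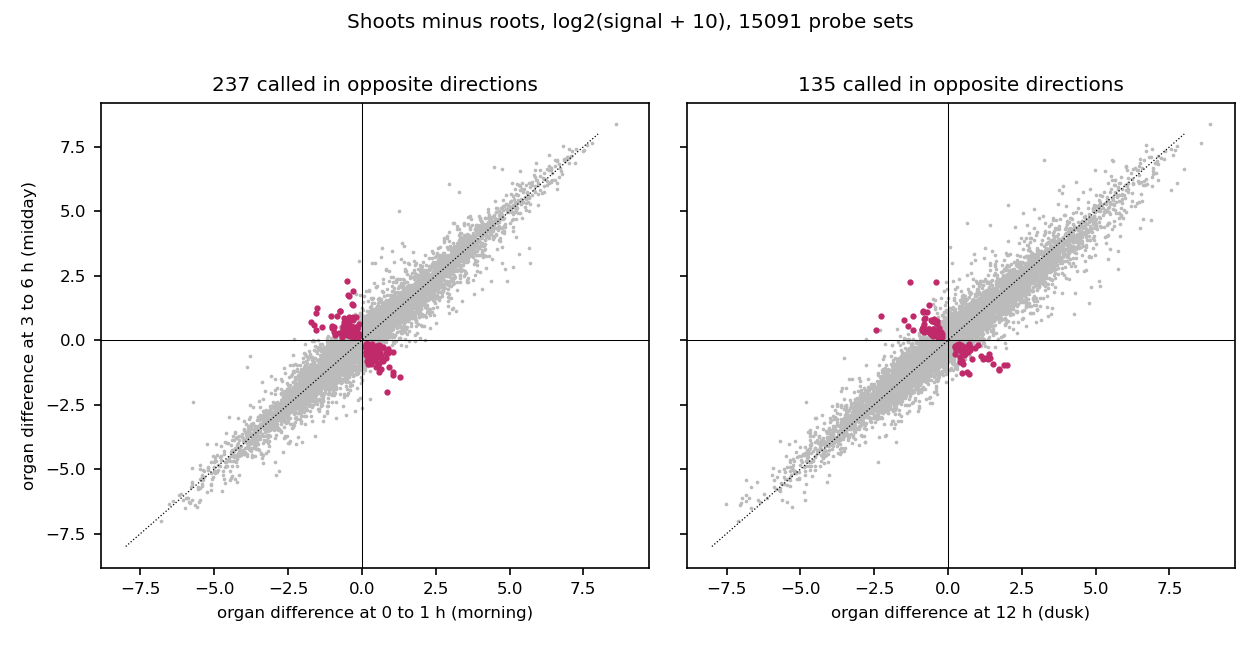
Midday organ difference (vertical) against the morning difference (left panel) and the dusk difference (right panel), shoots minus roots in log2(signal + 10), for each of 15091 probe sets. Magenta points were called in opposite directions in the 2 windows, 237 against morning and 135 against dusk; most other points lie near the dotted line of equal difference, and the panels share the midday arrays.

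The dusk comparison rests on 2 shoot and 2 root arrays at 12 h and uses the same midday arrays. The organ difference changed between midday and dusk for 2179 probe sets (14.4%), toward shoots at midday for 1100 (7.29%) and toward roots for 1079 (7.15%). Shoots alone differed for 4062 (26.9%) and roots alone for 847 (5.61%). Of the 1100, 761 were called in shoots only and 127 in roots only, and of the 1079, 863 and 81.

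Antenna genes of the same small family moved in opposite ways. LHCB4.2 read 4370, 4970 and 5570 on midday shoot arrays and 1440 and 1350 at dusk, and its organ difference was higher at midday by 1.42 ± 0.24. LHCB4.3 read 208, 236 and 478 in midday shoots and 1480 and 1300 at dusk, and its organ difference was lower at midday by -2.25 ± 0.22 (adjusted p = 3.5e-07). Root signals of both stayed below 40. LHCB4.1 did not pass (0.03, adjusted p = 0.94).

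Further genes higher toward shoots at midday than at dusk were THI2.2, at 81.1 and 65 on the dusk shoot arrays (2.4 ± 0.26), and the expansin-like gene EXLA1 (AT3G45970, 2.16 ± 0.57), whose change did not pass without the 4 h arrays (1.8). IAA29 (AT4G32280), an auxin response repressor, changed by 1.71 ± 0.31. AT5G62280 read 61.8, 68.6 and 219 on midday shoot arrays and 1.33 and 4.18 at dusk, while roots read 30.6, 48.7 and 61.4 at midday and 51.7 and 50.3 at dusk. It was thus higher in shoots at midday (0.93) and lower at dusk (-2.27), a change of 3.19 ± 0.29. For UGT84A1 (AT4G15480), which acts on sinapate, the change of 1.8 ± 0.22 lay in roots, at 6.62, 12 and 17 at midday and 64.2 and 72.2 at dusk, and did not pass without a pseudocount (2.17).

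Toward roots at midday, ATSPS4F (AT4G10120), a sucrose phosphate synthase of leaves, read 183, 261 and 396 on midday shoot arrays and 939 and 1000 at dusk. Its organ difference changed by -1.97 ± 0.19. COR27 (AT5G42900), a clock-linked cold gene, changed by -2.04 ± 0.31, with shoots at 0.312, 10.7 and 140 at midday and 106 and 102 at dusk. Its 6 h shoot arrays, at 109 and 140, were already at the dusk level, and the midday organ difference (0.3) did not pass, nor did the change without a pseudocount (-3.31). The largest changes were those of AT5G59670 (-3.25 ± 0.36), AT3G28270 (-3 ± 0.17) and AT3G60420 (-2.95), and AT1G07050 changed by -2.77 ± 0.23. AT3G11930 changed through roots, which read 155, 661 and 995 at midday and 86.2 and 146 at dusk, by -2.47 ± 0.46.

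Opposite organ orders at midday and dusk were called for 135 probe sets (0.895%), 73 of them higher in shoots at midday. Centring gave 138, of which 77 were shared, and quantile normalization 111, of which 72 were shared, with 7 and 5 of 8 named genes kept. The dusk difference by itself was called for 77.6%, with shoots higher for 26.1% and lower for 51.5%. SKU5 (AT4G12420), a wall-associated protein of directional growth, read 825, 869 and 1090 in midday shoots and 663 and 701 at dusk, against 538, 690 and 841 in midday roots and 1060 and 914 at dusk. Its organ difference was 0.44 at midday and -0.52 at dusk. BZIP61 (AT3G58120), a bZIP transcription factor, had 0.79 and -0.58, and AFR 0.77 and -0.51, but after quantile normalization neither was kept. SCPL49 (AT3G10410), a serine carboxypeptidase-like gene, had -0.38 at midday and 0.61 at dusk.

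**Figure D5:**
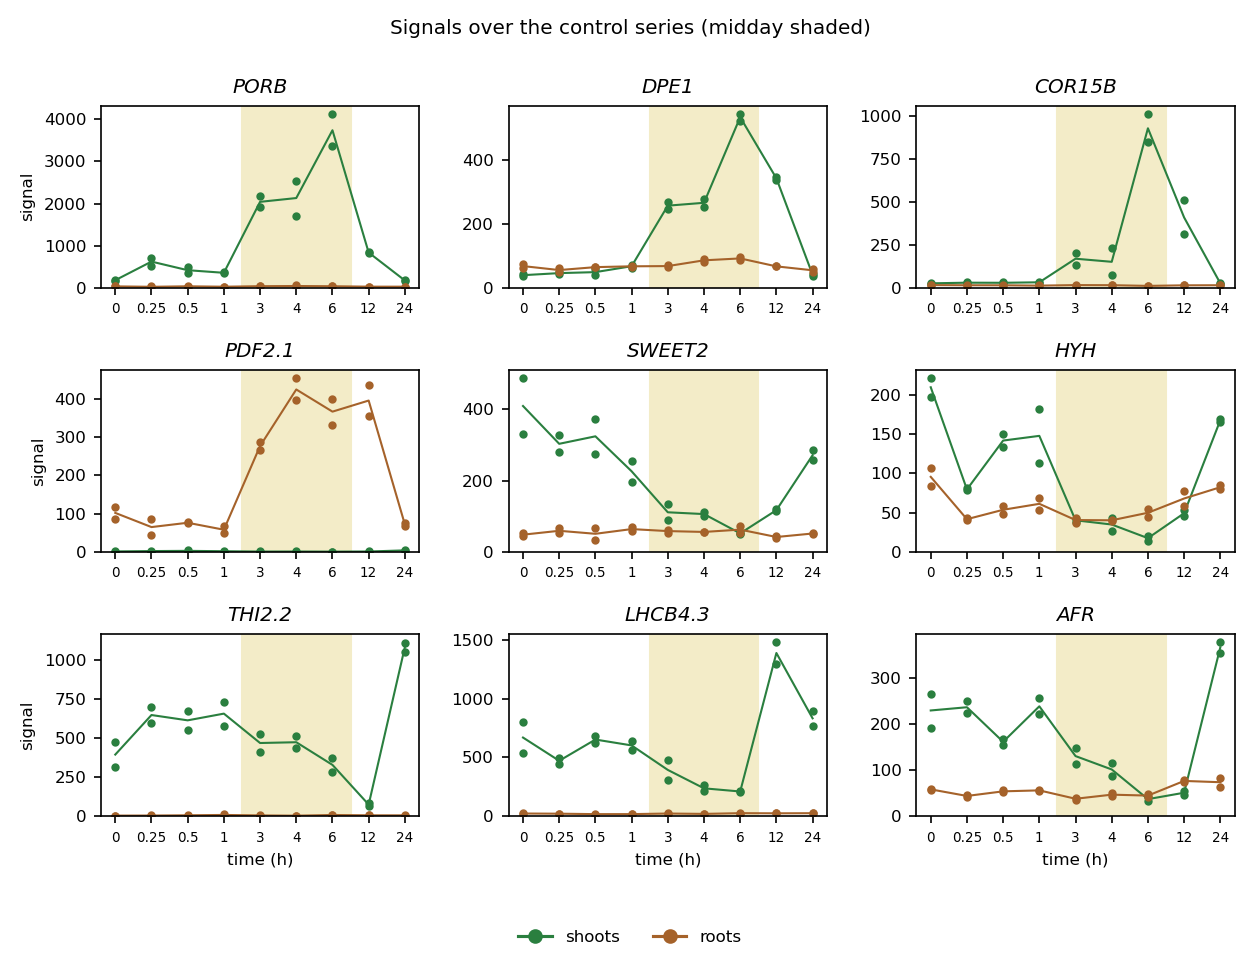
Signals of 9 genes whose organ difference at midday differed from morning or dusk, at all 9 times (evenly spaced, not to scale), with points for single arrays, lines through the mean of 2 arrays, shoots in green and roots in brown, and midday shaded. PORB, DPE1 and COR15B were highest in shoots at 6 h, SWEET2 and HYH had lower shoot signals at midday than in the morning, LHCB4.3 lower ones than at dusk, AFR was below its morning shoot level at midday, and PDF2.1 moved in roots.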

How the data were processed

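RNA of shoots and roots was hybridised to Affymetrix ATH1 arrays, 1 array per sample. The deposited values are an intensity per probe set, made with MAS5 per the submitters' processing notes. The authors had scaled them: leaving out the bottom and top 2% of the 22810 probe sets, every array averaged 100.007 to 100.01, so no scaling was added. Control probe sets (64) were set aside. A probe set was kept where 2 or more of the 36 arrays reached 40 (15091 probe sets). Per the probe table, 13513 probe sets have 1 gene, 503 several and 8794 are unnamed; 13436 were matched to the gene table of assembly TAIR10.1 for symbols only, and 8117 kept probe sets had 1 gene. Only these were named.

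log2(signal + 10) was fitted with limma 3.58.1 (R 4.3.3) in 1 fit of 18 group means over all arrays, with 18 residual and 4.06 prior degrees of freedom. Contrasts were the organ difference averaged over 3, 4 and 6 h, at each time, its variation over the times (moderated F), and midday minus morning and minus dusk. Adjusted p is Benjamini-Hochberg over all kept probe sets, 2-sided, with 0.05 as threshold. The number of arrays limits the precision. The procedure was tested on simulated data. Figures were drawn with matplotlib 3.10.9.

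Named were the 8 largest midday differences each way among genes without overlap. Also named were the 6 largest each way among genes without overlap that had a mean of at least 40 in both organs. Further ranks were the 8 largest each way against morning, the 6 each way against dusk, and the 6 smallest p over 3 to 6 h. The largest reversals (8 against morning and 4 against dusk) and members of gene lists were named too. A rule added after the values were seen repeated these ranks among the 1177 kept probe sets whose gene has a symbol. A few further list members were chosen after their values were seen. The samples, gene lists and comparisons were chosen with earlier results of these data known, and some lists share genes. Alternatives were no pseudocount or 50, no filter or one at 100, quantile normalization, centring on array medians, a trend and robust prior, the 12 midday arrays alone, a fit without 4 h, morning without 0 h, a replicate block, and leaving out each midday array.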

Additional observations from a re-analysis of the deposited data

Results flagged for a closer look

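Each result below is an organ difference (shoots minus roots, log2) that itself differed between times of day in limma at an adjusted p under 0.05.

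Between midday and morning the largest changes toward shoots were those of AT5G62360 (3.15), AT3G62550 (3.11), COR15B (2.9), AT4G30660 (2.77), AT2G39920 (2.65), AT4G34950 (2.55), PORB (2.45), BGLU44 (2.43), AT4G30650 (2.42) and DPE1 (2.21). Smaller ones were those of AT5G62350 (1.88), AT1G20030 (1.87), WLIM2a (1.77), TUB5 (1.76), PWD (1.7), CHL (1.67) and TUB6 (0.7). Toward roots at midday changed AT1G33055 (-2.31), PDF2.1 (-2.25), AT1G53540 (-2.17), AT1G65490 (-2.09), AT3G28270 (-2.07), AT2G27420 (-2.07), AT1G55960 (-1.99) and AT2G17850 (-1.84). So did the sugar transporter genes SWEET2 (-1.83) and SAG29 (-1.81), AT1G68440 (-1.78), AT2G24600 (-1.53), HYH (-1.5), the growth gene ARL (AT2G44080, -1.49), AT1G72940 (-1.46), CML38 (-1.45) and PPDK (-1.39). The others were AT1G19380 (-1.31), UGT87A2 (AT2G30140, -1.29), EXO (-1.25), UGT76C2 (-1.12), WRKY22 (-0.81) and AAH (-0.81).

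Between midday and dusk the difference lay further toward shoots at midday for AT5G62280 (3.19), AT5G42250 (2.83), AT5G35970 (2.47), THI2.2 (2.4), AT1G76240 (2.28), EXLA1 (2.16), AT2G05540 (2.16), AT1G20030 (1.98), AT2G30600 (1.95) and UGT84A1 (1.8). It did so by less for IAA29 (1.71), EXLA2 (AT4G38400, 1.43), LHCB4.2 (1.42), BZIP61 (1.38), AFR (1.28) and SKU5 (0.97). It lay further toward roots for AT5G59670 (-3.25), AT3G28270 (-3), AT3G60420 (-2.95), AT1G07050 (-2.77), AT3G11930 (-2.47), AT1G31690 (-2.46), LHCB4.3 (-2.25), COR27 (-2.04), ATSPS4F (-1.97), TBL26 (AT4G01080, -1.76), CYP71B24 (AT3G26230, -1.33), UGT71B1 (AT3G21750, -1.28) and SCPL49 (-0.99).

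Within midday the range of the organ difference over 3, 4 and 6 h was 4.41 for AT1G07050, 2.99 for COR15B, 2.76 for AT2G15020, 2.36 for AT1G64500, 2.26 for AT4G16146, 2.06 for AT1G55960 and 1.77 for AT3G56290. It was 1.89 for OCT1 (AT1G73220), an organic cation transporter, 1.78 for AFR, 1.56 for PWD, 1.3 for GI and 1 for scpl20 (AT4G12910).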

How the results depend on the processing

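No named gene past the threshold in a comparison was past it the other way under the alternatives run, apart from TUA6 (0.18, -0.13 after quantile normalization) and PRXR1 (0.21, -0.54). Over all kept probe sets 10 of 12941 midday calls turned with quantile normalization. Of the counts of probe sets past the threshold, 2 moved by over 1.5 times. The count over 3, 4 and 6 h (573) was 363 with the 12 midday arrays only, and 322 to 672 when each array was left out, with 360 and 376 without the 3 h root replicates 1 and 2, 322 without 6 h root replicate 2, and 365 and 375 without the 6 h shoot replicates 1 and 2. The 6 h minus 3 h count (642) was 319 to 691, with 319 and 367 without the 3 h root replicates, 359 without 6 h root replicate 2 and 377 without 6 h shoot replicate 2. A lone array was then assumed to vary like the other groups. The midday count was 12732 to 12803 when each array was left out and 12453 without 4 h, the count against morning 3631 to 4090 and against dusk 1924 to 2240. The midday split toward shoots was 35.2% of calls, 41.5% after centring and 40.2% after quantile normalization. At 2-fold, no pseudocount gave 2811 higher and 3646 lower and a pseudocount of 50 gave 1879 and 1708, against 2560 and 3113 with 10. With 50 the 2-fold counts against morning were 95 and 96, against 215 and 228 with 10, and against dusk 113 and 134, against 228 and 261, so weak signals limit fold sizes.

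Same-numbered shoot and root arrays correlated at -0.041 to 0.026 after group means were removed, so the numbers were not taken as pairs; a replicate block gave 12940 calls at midday, 4221 against morning and 2163 against dusk. For the named genes, 6770 values under alternatives kept direction and side of the threshold, 26 fell out of it and 19 passed it newly. BGLU42 lost its midday call without any of 8 single arrays (0.16 to 0.2). Midday calls were lost without 4 h by AT5G42250 (0.25), AT3G60420 (-0.74), AT3G11930 (0.52), SWEET2 (0.3) and scpl20 (-0.12), and by GI after centring (-0.12). Against dusk EXLA1 lost its call without 4 h (1.8), and UGT84A1 (2.17) and COR27 (-3.31) without a pseudocount. The causes were not tested.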

Other observations

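Most of the smaller families, from lists written with the probe names known, showed both directions at midday. Over all probe sets 30.1% were higher and 55.6% lower in shoots, and small counts near these shares say nothing about a family. Of 11 IQD genes, which encode calmodulin-binding scaffold proteins, 3 were higher and 8 lower in shoots (6 lower after centring), from iqd21 (AT3G49260) at 3.52 ± 0.09 to IQD18 (AT1G01110) at -1.96 ± 0.16. Tetraspanins, membrane organisers, had 2 higher and 5 lower of 7, close to those shares. TET2 (AT2G19580) read 20.1, 30.7 and 33.2 on shoot arrays and 237, 306 and 340 on root arrays (-2.95 ± 0.08). RALF-like signal peptides had 3 higher and 3 lower of 7, from RALFL34 (AT5G67070) at 1.36 ± 0.08 to RALFL27 (AT3G29780) at -3.17 ± 0.12. Glutamate receptor-like channels had 3 of 4 higher (4 after centring), led by GLR2.7 (AT2G29120) at 2.18 ± 0.17.

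The next counts also stand against the 55.6% of all probe sets that were lower in shoots. Of 6 WRKY regulators 5 were lower in shoots (4 lower and 1 higher after centring), WRKY6 (AT1G62300) with a difference of -2.72 ± 0.28. Among iron-response bHLH regulators 4 of 6 were lower and 1 higher (3 and 2 after centring), with bHLH115 (AT1G51070) at 101, 126 and 149 on shoot arrays and 450, 453 and 487 on root arrays (-1.79 ± 0.08), and bHLH121 (AT3G19860) at 0.42 ± 0.09. In flavonoid synthesis UGT78D1 (AT1G30530), a flavonol rhamnosyltransferase, was higher in shoots (2.11 ± 0.13) and UGT78D2 (AT5G17050), a flavonoid glucosyltransferase, was lower (-0.78 ± 0.09), while UGT78D2 was higher in shoots in the morning (0.25 ± 0.08).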
